A study of Mus musculus with 14 samples.

Results

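Clec10a, Mgl2 and Mrc1 encode endocytic lectin receptors that bind galactose-type or mannose-type sugars on glycoproteins. The 3 genes were taken by symbol from tables of 24980 genes (dendritic cells) and 17118 genes (monocytes and macrophages), and all 3 are present in both tables. They were selected with their fall in stimulated dendritic cells already known, so their values in that comparison are given as a description and carry no p-value. RNA was sequenced from 14 libraries of sorted marrow cells. The mice were Cx3cr1 gfp/+, with GFP in place of 1 copy of a chemokine receptor gene. The reporter is present in every group, while the series' design text calls the mice wild type. Dendritic cells from mice given 1 dose of PAM3CSK4 (4 libraries) were set against dendritic cells from mice given vehicle (4 libraries). PAM3CSK4, a triacylated lipopeptide made by synthesis, is an agonist of the receptor pair TLR1/TLR2. The gate for dendritic cells asked for high CD11c, high MHC class II and high GFP, with Gr-1 and B220 negative. Baseline macrophages (3 libraries) were GFP-negative, MHC class II-high and CD169-positive without Gr-1 or B220, and were set against baseline monocytes (3 libraries), which were CD115-positive, GFP-high and B220-negative, Gr-1-low and Gr-1-high cells together. The age of the mice, the dose and the time to collection are not given in the labels. No label ties the replicates of a group to separate mice, so the spread between them may be technical in part.

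Clec10a (also called Mgl1) and Mgl2 are type II membrane proteins with a single carbohydrate recognition domain each, which in the mouse binds Lewis X structures in the case of Mgl1 and N-acetylgalactosamine in the case of Mgl2. Mrc1, the mannose receptor CD206, is a large type I receptor with several lectin domains that internalises mannosylated and sulfated glycoproteins and pathogens. All are used as markers of macrophages exposed to interleukin 4, and Mgl2 and Clec10a also mark conventional dendritic cells of the type 2 lineage (cDC2).

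Mgl2 (chromosome 11, 70130357 to 70137542, plus strand, mm10) and Clec10a (chromosome 11, 70166623 to 70170836, plus strand) are neighbours, 29080 bases apart by the deposited coordinates. GENCODE M21 starts Clec10a further upstream, at 70156197, which leaves 18646 bases to Mgl2, and places 0 genes wholly between them. Mrc1 (chromosome 2, 14229414 to 14332023, plus strand) spans the microRNA gene Mir511. The coding sequences of Clec10a and Mgl2 hold 912 and 996 bases (304 and 332 codons) in 9 coding exons each, against 4368 bases (1456 codons) in 30 exons for Mrc1. Clec10a and Mgl2 were identical at 822 of 906 aligned coding bases (90.7%). Their longest shared run was 183 bases, while neither shared a run of more than 11 bases with Mrc1. Of all 50-base windows of the Clec10a coding sequence, 28.0% also occur in Mgl2, and of those of Mgl2, 25.6% occur in Clec10a. At 100 bases the shares were 11.2% and 10.1%. Reads that lie wholly within such stretches cannot be given to one of these genes, and how the authors assigned them is not given in the sources used here, so the values of Clec10a and Mgl2 are uncertain to that extent. Exon 8 carries the longest identical stretch and is shown because a read from it fits both genes (chr11:70169926-70170077 in Clec10a and chr11:70136441-70136592 in Mgl2, plus strand, GRCm38). Exon 9 is shown because it holds bases that do tell the genes apart (chr11:70170160-70170266 in Clec10a and chr11:70136670-70136776 in Mgl2). The 7 positions in capitals differ among its 107 bases.
Clec10a and Mgl2 exon 8: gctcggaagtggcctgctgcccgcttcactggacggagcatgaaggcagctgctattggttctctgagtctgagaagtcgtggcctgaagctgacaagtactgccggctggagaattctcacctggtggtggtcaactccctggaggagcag
Clec10a exon 9: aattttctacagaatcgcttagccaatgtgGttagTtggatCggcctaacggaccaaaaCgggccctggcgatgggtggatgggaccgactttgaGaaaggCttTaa
Mgl2 exon 9: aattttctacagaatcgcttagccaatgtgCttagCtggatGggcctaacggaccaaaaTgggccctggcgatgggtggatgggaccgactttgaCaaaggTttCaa

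**Figure D1:**
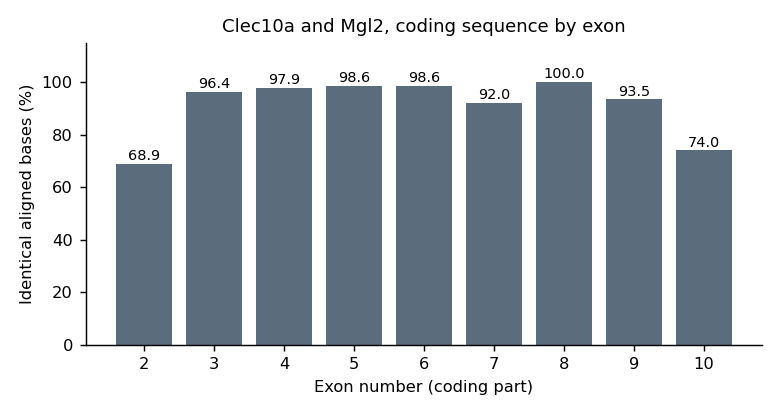
Share of identical aligned bases (%) between Clec10a and Mgl2 for each pair of coding exons, numbered as in GENCODE M21. Exons 3 to 6 and exon 8 are at 96.4% or more, and exons 2 and 10 are the least alike, at 68.9% and 74.0%.

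The 250 bases before the start of Mgl2 (chr11:70130107-70130356) and of Mrc1 (chr2:14229164-14229413) are shown because these genes were both lower in dendritic cells after PAM3CSK4. They come from RefSeq (GRCm38.p6, plus strand), which matched 2 of the 3 genes. Capitals mark matches to GAGGAA, a core letter string of sites for the myeloid factor PU.1, and to CCNCNCCC, a string of sites for Krüppel-like factors, searched on both strands.
Mgl2 upstream: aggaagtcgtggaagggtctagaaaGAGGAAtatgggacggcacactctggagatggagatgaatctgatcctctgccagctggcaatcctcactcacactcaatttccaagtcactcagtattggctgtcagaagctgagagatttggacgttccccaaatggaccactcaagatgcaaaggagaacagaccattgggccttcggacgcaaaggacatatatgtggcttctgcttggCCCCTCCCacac
Mrc1 upstream: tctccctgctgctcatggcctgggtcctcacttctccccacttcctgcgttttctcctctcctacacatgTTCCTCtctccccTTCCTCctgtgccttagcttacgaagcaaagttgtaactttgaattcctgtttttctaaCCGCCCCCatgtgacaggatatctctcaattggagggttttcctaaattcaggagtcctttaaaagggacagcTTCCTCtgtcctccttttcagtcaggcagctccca

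The PU.1 string occurs once upstream of Mgl2, on the plus strand, and at 3 places upstream of Mrc1, all on the minus strand (read as TTCCTC above). It occurs in 23.3% of the 32851 windows of this kind in the RefSeq table. The Krüppel-like string occurs at 1 place in each and in 45.9% of all windows. In Mgl2 it lies 12 to 5 bases before the RefSeq start. GENCODE M21 starts Mgl2 further upstream, at 70130329, so by that annotation this match lies within the gene. There was no match in either window to TTCNNNNGAA (STAT6), which 5.85% of all windows hold, to GGAANNGAAA (PU.1 with IRF, 2.30%), to TGANTCA (AP-1, 6.75%) or to GGGNNNTTCC (NF-kB, 4.65%).

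Values are CPM, reads scaled to a common library total and not divided by the length of the gene, so that levels of different genes are not compared. From the spacing of the low values, 1 CPM stood for 28.2 to 65.3 reads with PAM3CSK4, 38.0 to 71.6 with vehicle, 33.5 to 75.1 in macrophages and 49.9 to 56.5 in monocytes. PAM3CSK4 replicate 4 stood apart. Its correlation with the other dendritic cell libraries was 0.826 to 0.894 on the log scale, its 10 dendritic cell markers summed to 799.5 CPM against 4927 to 5996 CPM in the other PAM3CSK4 libraries and 10240 to 13260 CPM with vehicle, and its 12 neutrophil markers summed to 11520 CPM against 512 to 1560 CPM and 416 to 822 CPM. In the other table, the 10 monocyte markers summed to 422 to 834 CPM in macrophages and 7655 to 8858 CPM in monocytes. The 12 macrophage markers overlapped between the groups, at 279 to 413 CPM in macrophages and 102.5 to 383 CPM in monocytes, and the 9 B and plasma cell markers summed to 476 to 7805 CPM in macrophages and 10.4 to 20.9 CPM in monocytes. Markers of NK and T cells (111 to 332 CPM in macrophages and 10.6 to 22.6 CPM in monocytes), erythroid cells (73.1 to 658.5 and 2.47 to 61.0 CPM) and stem and progenitor cells (554 to 1389 and 104 to 292 CPM) were higher in macrophages too, with no overlap.

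All 3 receptors were lower in every library of dendritic cells after PAM3CSK4 than in any vehicle library. Mean Clec10a was at 5.06% of its vehicle level, mean Mgl2 at 0.988% and mean Mrc1 at 11%. In log2 change of CPM + 1, from largest fall to smallest, Mgl2 stood 2nd, Clec10a 3rd and Mrc1 6th among 11377 genes tested. With limma at an adjusted p under 0.05, 5.12% of those genes were called, 2.82% as higher and 2.29% as lower, and 4.68% were lower with no overlap between the groups. The comparison was the one that chose the genes, so these ranks describe the choice.

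Clec10a was at 10.3, 3.49, 5.27 and 1.12 CPM in PAM3CSK4 replicates 1 to 4, against 129, 107, 73.0 and 89.5 CPM in vehicle replicates 1 to 4. The lowest vehicle library was 7.11-fold above the highest PAM3CSK4 library, replicate 1. The means were 5.04 ± 3.88 CPM with PAM3CSK4 and 99.5 ± 23.9 CPM with vehicle (SD, n = 4 each), a 19.8-fold lower mean and a log2 change of -4.27 ± 0.42 (SE). At its lowest, in PAM3CSK4 replicate 4, the gene still held about 73 reads.

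Mgl2 was at 0.733, 0.717, 0.371 and 2.33 CPM in PAM3CSK4 replicates 1 to 4, against 174, 106, 37.6 and 102 CPM in vehicle replicates 1 to 4. The PAM3CSK4 values stand for about 46, 20, 11 and 152 reads, so 3 of the 4 rest on few reads. Replicate 4 was the highest PAM3CSK4 library for Mgl2 and the lowest for the other receptors. Vehicle replicate 3 was the lowest control library for Mgl2 and for Clec10a, and still 16.1-fold above the highest PAM3CSK4 library for Mgl2. The means were 1.04 ± 0.877 CPM with PAM3CSK4 and 105.0 ± 55.8 CPM with vehicle, 101-fold lower, with a log2 change of -5.60 ± 0.42. That value depends on the pseudocount, with -6.61 at 0.1 CPM and -4.03 at 5 CPM.

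Mrc1 was at 25.9, 62.8, 11 and 2.93 CPM in PAM3CSK4 replicates 1 to 4, against 232, 291, 212 and 199 CPM in vehicle replicates 1 to 4. The PAM3CSK4 libraries spread widely, with replicate 2 high and replicate 4 low, while the vehicle libraries lay close together. The lowest vehicle library was 3.17-fold above PAM3CSK4 replicate 2. The means were 25.7 ± 26.5 CPM with PAM3CSK4 and 234 ± 40.8 CPM with vehicle, 9.10-fold lower, with a log2 change of -3.78 ± 0.63. Without PAM3CSK4 replicate 4 the change was -3.08 for Mrc1, -3.85 for Clec10a and -5.86 for Mgl2.

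**Figure D2:**
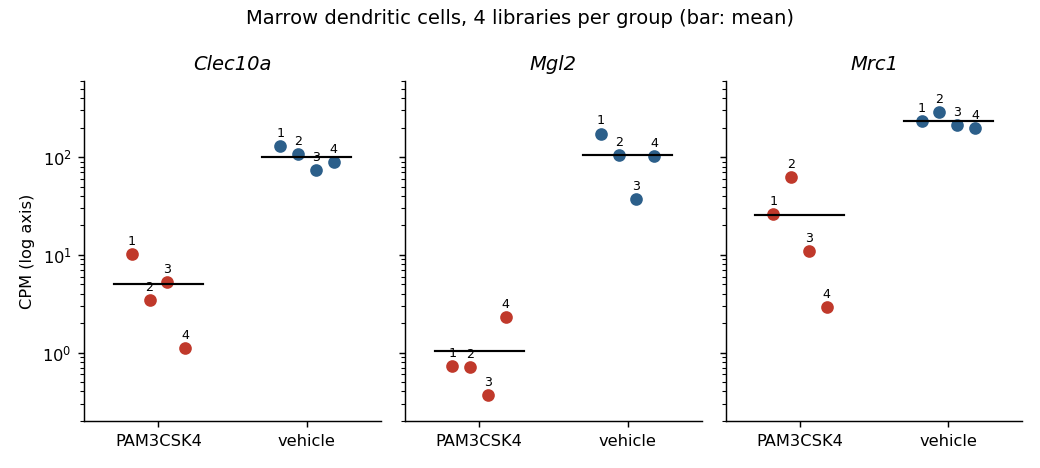
CPM of Clec10a, Mgl2 and Mrc1 (log axis) in dendritic cell libraries from mice given PAM3CSK4 (left, 4 libraries) or vehicle (right, 4 libraries). Points are libraries with their replicate numbers and bars are group means. The groups do not overlap for any of the 3 genes, and replicate 4 with PAM3CSK4 is lowest for Clec10a and Mrc1 but highest for Mgl2.

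In bulk RNA, fewer cells that express a receptor and less of its RNA per cell cannot be told apart. Several marker sums moved with the treatment. The 10 dendritic cell markers summed to 799.5 to 5996 CPM with PAM3CSK4 and 10240 to 13260 CPM with vehicle, where 2 of the 10 passed the limma test as lower (Zbtb46, adjusted p = 0.031, and Irf4, adjusted p = 0.039, named here after their values were seen). The call of Zbtb46 was lost with any 1 vehicle library, PAM3CSK4 replicate 2 or PAM3CSK4 replicate 3 left out (adjusted p up to 0.092). Without the MHC class II genes H2-Ab1, H2-Aa and Cd74, the other 7 summed to 757, 419, 621 and 87.7 CPM in PAM3CSK4 replicates 1 to 4, against 666, 811, 929 and 780.0 CPM in vehicle replicates 1 to 4. The 10 monocyte markers summed to 796 to 1238 CPM with PAM3CSK4 and 1554 to 2307 CPM with vehicle. The 12 macrophage markers overlapped, at 311, 1898, 798 and 365 CPM with PAM3CSK4 and 550 to 990 CPM with vehicle. They were highest in PAM3CSK4 replicate 2, which had the most Mrc1 of the PAM3CSK4 libraries. Among those libraries the monocyte markers were highest there too (1238 CPM). The 7 endothelial markers summed to 37.7 to 142 CPM with PAM3CSK4 and 17.5 to 30.1 CPM with vehicle, and the 7 plasmacytoid dendritic cell markers to 279, 103, 287 and 44.0 CPM with PAM3CSK4 replicates 1 to 4 and 33.5 to 54.2 CPM with vehicle. The 8 erythroid markers summed to 88.6 to 998.7 CPM with PAM3CSK4 and 9.17 to 173 CPM with vehicle. The part of these cell populations in the falls was not tested.

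Mgl2 did not keep a fixed proportion to Clec10a after PAM3CSK4, where it held about 46, 20, 11 and 152 reads in replicates 1 to 4. The ratio of Mgl2 to Clec10a reads was 0.0713, 0.206, 0.0704 and 2.08 in PAM3CSK4 replicates 1 to 4, against 1.35, 0.990, 0.514 and 1.14 in vehicle replicates 1 to 4. In 3 of the 4 PAM3CSK4 libraries it was below every vehicle library, and in replicate 4 above all of them, so the groups overlap. The ratio of Mrc1 to Clec10a was 2.52, 18.0, 2.09 and 2.62 with PAM3CSK4, against 1.8, 2.72, 2.90 and 2.23 with vehicle. Here the libraries mix except PAM3CSK4 replicate 2, which was high.

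Other lectin receptors fell beside them in dendritic cells. In the mannose receptor family, the other tested gene was Ly75 (DEC-205, an antigen uptake receptor of dendritic cells), at 27.0 ± 15.3 CPM with PAM3CSK4 and 11.9 ± 5.53 CPM with vehicle. Its log2 change of 1.10 ± 0.40 did not pass the test (adjusted p = 0.13, limma), and Mrc2 and Pla2r1 were below the filter of 1 CPM in at least 4 libraries. Among galactose-type receptors, Asgr2, a subunit known from the asialoglycoprotein receptor of liver, fell to 0.0449 ± 0.0542 CPM with PAM3CSK4, against 1.64 ± 0.361 CPM with vehicle (log2 change -1.33 ± 0.23, adjusted p = 0.0083). Asgr1, Clec4f and Colec12 were below the filter.

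Of 17 further C-type lectins of the mannose and fucose type, 12 were tested, 6 fell, 1 rose and 5 did not pass, against 2.29% of all genes called lower. The list was chosen with earlier results of these data known. Its count and the adjusted p-values below therefore describe the list and are no independent support. Their median log2 change was -0.93, and that of all genes tested 0.20. Of the Cd209 genes, homologues of human DC-SIGN, 5 fell. Cd209a fell to 3.12 ± 4.40 CPM with PAM3CSK4, against 391 ± 49.9 CPM with vehicle (-7.12 ± 0.54, adjusted p = 3.7e-05). Cd209c was at 0.434 ± 0.310 CPM with PAM3CSK4 and 19.5 ± 11.8 CPM with vehicle (-3.72 ± 0.34, adjusted p = 0.00017), and Cd209d at 0.249 ± 0.214 CPM and 10.9 ± 2.42 CPM (-3.24 ± 0.24, adjusted p = 3.7e-05). Cd209b and Cd209e fell by 2.48 and 2.42 on the log2 scale. Clec4g (LSECtin, a lectin of liver sinusoidal endothelium) fell by 1.88. These 6 falls held in all 14 alternative settings. Cd209f, in contrast, was at 3.53 ± 1.90 CPM with PAM3CSK4 and 0.737 ± 0.741 CPM with vehicle (1.39 ± 0.34, adjusted p = 0.040), a call lost in 9 of 14 settings, among them with vehicle replicate 2, 3 or 4 or PAM3CSK4 replicate 2 or 3 left out (adjusted p up to 0.11). Clec4a2 (57.6 ± 50.5 CPM with PAM3CSK4 and 16.0 ± 3.18 CPM with vehicle) and Clec4a4 (5.44 ± 3.77 and 0.974 ± 0.565 CPM), inhibitory receptors of the DCIR group, did not pass (adjusted p = 0.068 and 0.17).

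**Figure D3:**
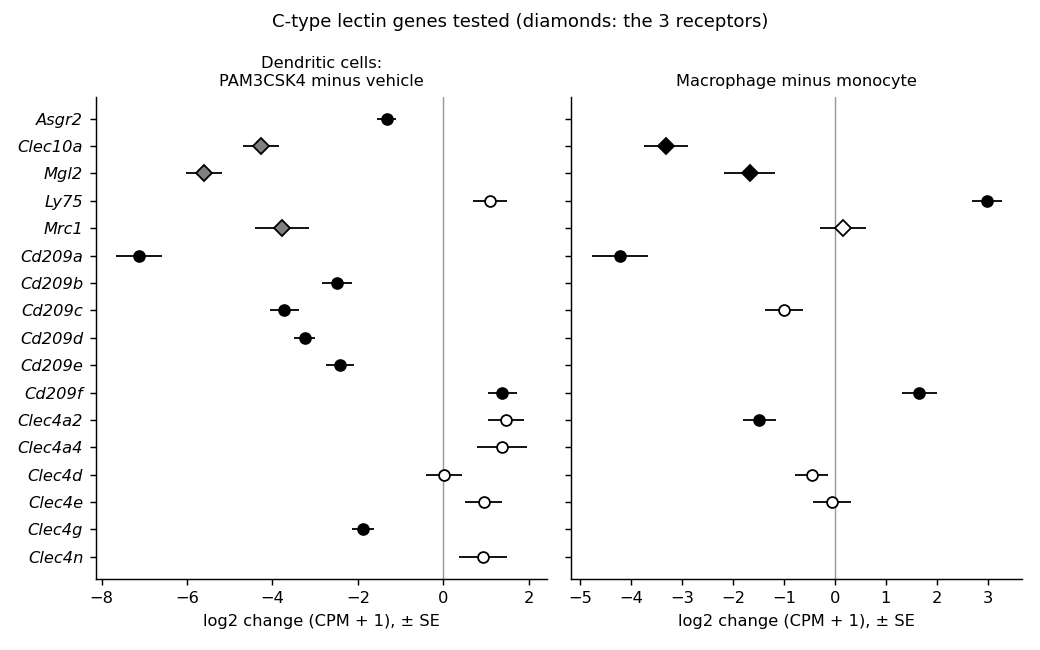
Log2 change of CPM + 1 with its SE for the C-type lectin genes tested, in dendritic cells (PAM3CSK4 minus vehicle, left) and in macrophages minus monocytes (right). Black symbols passed the adjusted p of 0.05, white ones did not, and diamonds are Clec10a, Mgl2 and Mrc1, grey where no test is read. Cd209a and the 3 receptors lie far to the left in dendritic cells, whereas in macrophages Mrc1 lies near 0.

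Clec10a, Mgl2 and Mrc1 are classical targets of interleukin 4 acting through STAT6. Of 15 other genes of that response that were tested, 4 fell, 0 rose and 11 did not pass with limma, against 2.29% of all genes tested lower and 2.82% higher, with a median log2 change of -0.41 against 0.20 for all genes. Without PAM3CSK4 replicate 4 the count was 5 lower and 3 higher of 16 tested, without PAM3CSK4 replicate 1 it was 5 lower and 2 higher, and without vehicle replicate 2 or 3 or PAM3CSK4 replicate 2 or 3 it was 2 lower. Calls among all genes moved the same way. They numbered 582 with all libraries, 785 without PAM3CSK4 replicate 4, 1008 without PAM3CSK4 replicate 1, and 184 to 447 in the other settings named. The pattern recognition receptor Clec7a (Dectin-1) fell to 19.3 ± 5.27 CPM with PAM3CSK4, against 93.1 ± 29.7 CPM with vehicle (-2.19 ± 0.29, adjusted p = 0.0018). Il13ra1, a receptor chain for interleukins 4 and 13, fell to 12.4 ± 6.60 CPM, against 57.9 ± 28.2 CPM (-2.15 ± 0.38, adjusted p = 0.0097), a call lost without the filter on low values (adjusted p = 0.064). The transcription factors Klf4 (-1.10 ± 0.25, adjusted p = 0.031) and Irf4 (-2.19 ± 0.54, adjusted p = 0.039) fell too, but lost their calls in 6 and 7 of 14 settings. Klf4 was not called without vehicle replicate 2, 3 or 4 or PAM3CSK4 replicate 2 or 3 (adjusted p up to 0.090), and Irf4 not with any 1 vehicle library left out or without PAM3CSK4 replicate 2 or 3 (adjusted p up to 0.11). Il4ra, the shared receptor chain, was at 114 ± 31.5 CPM with PAM3CSK4 and 57.0 ± 15.5 CPM with vehicle, and Pdcd1lg2 (PD-L2) at 8.34 ± 5.30 and 2.61 ± 0.752 CPM, neither past the threshold (adjusted p = 0.055 and 0.070).

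Among 11 other tested markers of cDC2, 3 fell (Cd209a, Klf4 and Irf4), 1 rose and 7 did not pass, against the same 2.29% of all genes lower and 2.82% higher, with a median log2 change of -0.69. With any 1 vehicle library, PAM3CSK4 replicate 2 or PAM3CSK4 replicate 3 left out, 1 or 2 of them were called. In these settings the calls among all genes fell too, to 184 to 447 from 582. The gene that rose was Itgam (CD11b), at 454 ± 253 CPM with PAM3CSK4 and 148 ± 32.7 CPM with vehicle (1.5 ± 0.34, adjusted p = 0.027), a call lost with any 1 vehicle library or PAM3CSK4 replicate 3 left out (adjusted p up to 0.092). Notch2, a receptor needed for part of the cDC2 lineage, was at 498 ± 132 and 917 ± 181 CPM and Cd4 at 4.25 ± 3.69 and 10.6 ± 4.21 CPM (adjusted p = 0.077 and 0.085). Among 15 other tested genes of Mrc1-positive tissue macrophages, 3 fell, 1 rose and 11 did not pass, again against 2.29% lower and 2.82% higher, with a median of -0.27. Cd163, the haemoglobin scavenger receptor, fell to 4.31 ± 1.94 CPM with PAM3CSK4, against 44.4 ± 14.7 CPM with vehicle (-3.12 ± 0.32, adjusted p = 0.00035). The growth factor Igf1 fell by 1.62 and the chemokine Pf4 by 1.40, with the call of Igf1 lost without vehicle replicate 1 (adjusted p = 0.051) and that of Pf4 with any 1 vehicle library or PAM3CSK4 replicate 3 left out (adjusted p up to 0.087). Without vehicle replicate 1 the list held 2 calls, where calls among all genes fell to 206. Cd5l, a secreted macrophage protein, rose to 43.8 ± 27.8 CPM, against 4.24 ± 2.17 CPM (2.92 ± 0.52, adjusted p = 0.010), a call lost without the filter (adjusted p = 0.070). Siglec1 (CD169) was at 17.2 ± 13.4 CPM with PAM3CSK4 and 44.9 ± 11.2 CPM with vehicle and Maf at 111 ± 94.7 and 29.6 ± 13.3 CPM (adjusted p = 0.069 and 0.12).

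At baseline, macrophages held less Clec10a and less Mgl2 than monocytes, and the difference in Mrc1 was small against its spread. Mean Clec10a in macrophages was at 6.37% and mean Mgl2 at 20.2% of the monocyte level. Of 12188 genes tested, limma called 20.2%, with 12.8% of the genes tested higher and 7.42% lower, the groups did not overlap for 34.2%, and 13.8% were lower with no overlap. The genes were not chosen by this comparison, so its test is given.

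Clec10a was at 2.88, 1.03 and 2.33 CPM in macrophage replicates 1 to 3, against 57.9, 22.3 and 17.6 CPM in monocyte replicates 1 to 3. The lowest monocyte library was 6.11-fold above the highest macrophage library. The means were 2.08 ± 0.951 CPM in macrophages and 32.6 ± 22.0 CPM in monocytes (SD, n = 3 each), with a log2 change of -3.31 ± 0.43 (95% interval -4.24 to -2.38, adjusted p = 0.00023). The call held in all 12 alternative settings.

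Mgl2 was at 3.47, 1.09 and 2.43 CPM in macrophage replicates 1 to 3, against 23.6, 5.58 and 5.42 CPM in monocyte replicates 1 to 3. The groups did not overlap, with the lowest monocyte library 1.56-fold above the highest macrophage library. The means were 2.33 ± 1.19 CPM in macrophages and 11.5 ± 10.4 CPM in monocytes, with a log2 change of -1.67 ± 0.50 (95% interval -2.75 to -0.59, adjusted p = 0.032). Monocyte replicate 1 held much of this difference. Without it the change was -1.03 (adjusted p = 0.079), and the call was also lost without macrophage replicate 1 (-1.92, adjusted p = 0.073) or 2 (-1.37, adjusted p = 0.17).

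Mrc1 was at 47.7, 34.7 and 68.0 CPM in macrophage replicates 1 to 3, against 96.7, 36.8 and 22.2 CPM in monocyte replicates 1 to 3. The groups overlapped, with monocyte replicate 1 above all macrophage libraries and replicate 3 below them. The means were 50.1 ± 16.8 CPM in macrophages and 51.9 ± 39.5 CPM in monocytes, with a log2 change of 0.16 ± 0.45 (95% interval -0.81 to 1.13, adjusted p = 0.86). The interval allows differences of either sign. Without monocyte replicate 1 the change was 0.74 (adjusted p = 0.16), and without monocyte replicate 3 it was -0.30.

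**Figure D4:**
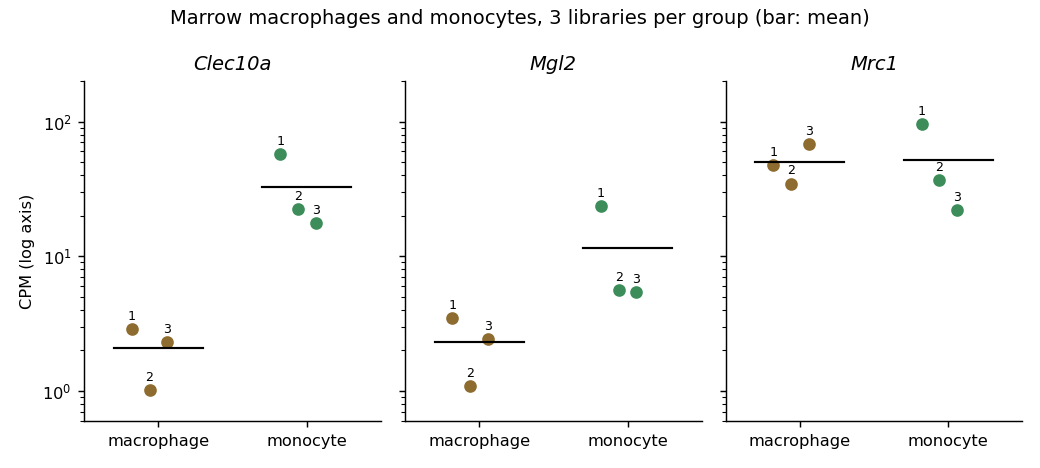
CPM of Clec10a, Mgl2 and Mrc1 (log axis) in baseline macrophage (left, 3 libraries) and monocyte libraries (right, 3 libraries). Points are libraries with replicate numbers and bars are means. Macrophages lie below monocytes for Clec10a and Mgl2 and overlap them for Mrc1, and monocyte replicate 1 is highest for all 3 genes.

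Monocyte replicate 1 was also high in markers of other cells. The 10 dendritic cell markers summed to 3345 CPM there, against 759 and 310.1 CPM in monocyte replicates 2 and 3, and to 2884, 4237 and 2445 CPM in macrophage replicates 1 to 3. The 12 macrophage markers summed to 383 CPM in it, against 102.5 and 153 CPM in the other monocyte libraries. In macrophages they summed to 355, 279 and 413 CPM in replicates 1 to 3, the order that Mrc1 followed. That order was not particular to them. Monocyte markers (554, 422 and 834 CPM) and B and plasma cell markers (2150, 476 and 7805 CPM) had it too, while several other lists did not. In monocyte replicates 2 and 3, Mrc1 and the macrophage markers ran in opposite order. The part of other cell types in these levels was not tested.

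Ratios between the receptors lay in separate ranges in the macrophage and monocyte libraries. The ratio of Mrc1 to Clec10a reads was 16.6, 33.9 and 29.2 in macrophage replicates 1 to 3, against 1.67, 1.65 and 1.26 in monocyte replicates 1 to 3. The ratio of Mgl2 to Clec10a was 1.2, 1.06 and 1.05 in macrophages, against 0.407, 0.250 and 0.308 in monocytes. No library of one population reached the range of the other in either ratio. Among single genes tested, the groups did not overlap for 34.2%, and no such share was worked out for ratios. On the log2(CPM + 1) scale, Clec10a less Mrc1 was -4.06 ± 0.37 in macrophages and -0.58 ± 0.23 in monocytes, a difference of -3.47. That is close to the change of Clec10a alone (-3.31). Clec10a less Mgl2 was -0.10 ± 0.09 in macrophages and 1.54 ± 0.28 in monocytes, a difference of -1.64. Mgl2 less Mrc1 was -3.96 ± 0.46 in macrophages and -2.12 ± 0.35 in monocytes, a difference of -1.83. In each of these 3 pairs a two-sided exact permutation test gave p = 0.10 (0.10 after Benjamini-Hochberg adjustment), the smallest value that 3 against 3 libraries allow.

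**Figure D5:**
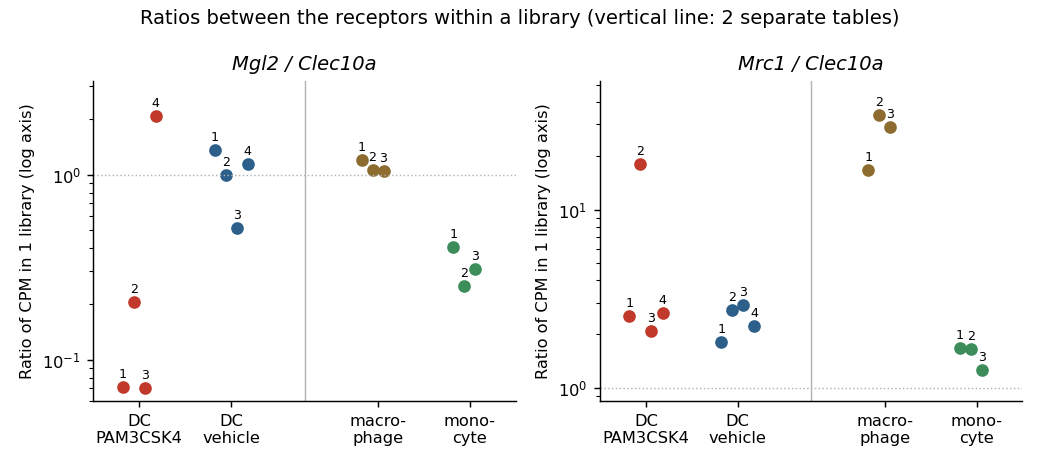
Ratio of Mgl2 to Clec10a CPM (left) and of Mrc1 to Clec10a CPM (right) in each library, on log axes, with replicate numbers; the vertical line parts the separately made tables and the dotted line marks a ratio of 1. Macrophage and monocyte libraries form separate ranges in both panels, while PAM3CSK4 replicate 4 (left) and replicate 2 (right) depart from their group.

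Across the tables, which were made separately and are not tested against each other, mean Clec10a was 5.04 CPM in dendritic cells after PAM3CSK4, 2.08 CPM in macrophages, 32.6 CPM in monocytes and 99.5 CPM in dendritic cells with vehicle. Mean Mgl2 was 1.04, 2.33, 11.5 and 105.0 CPM in the same order, and mean Mrc1 25.7, 50.1, 51.9 and 234 CPM. For every one of the 3 genes the vehicle dendritic cell libraries were above all monocyte and macrophage libraries. Dendritic cells after PAM3CSK4 overlapped macrophages in all 3 genes. The columns headed as dendritic cells in the monocyte and macrophage table were not used, so no comparison within that table is given.

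Among the other lectins, Ly75 rose to 37.1 ± 9.12 CPM in macrophages, against 3.74 ± 0.579 CPM in monocytes (2.98 ± 0.29, adjusted p = 3.9e-05), so within the mannose receptor family this gene rose where Mrc1 did not pass. Asgr2 and Colec12 were below the filter. Of the 17 further C-type lectins, 6 were tested, 2 fell, 1 rose and 3 did not pass, against 20.2% of all genes called. Cd209a fell to 1.2 ± 0.452 CPM in macrophages, against 53.3 ± 47.6 CPM in monocytes (-4.21 ± 0.56, adjusted p = 0.00026), and Clec4a2 to 9.59 ± 2.59 CPM, against 28.9 ± 9.74 CPM (-1.48 ± 0.32, adjusted p = 0.0055). Cd209f rose to 3.14 ± 1.21 CPM, against 0.323 ± 0.443 CPM (1.65 ± 0.34, adjusted p = 0.0048). Cd209c was at 0.502 ± 0.219 and 2.28 ± 1.8 CPM and did not pass (adjusted p = 0.080).

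Genes of the interleukin 4 response split between the populations. Of 17 others tested, 6 rose in macrophages, 5 fell and 6 did not pass, against 12.8% of all genes tested higher and 7.42% lower, with a median log2 change of 0.82 against 0.10 for all genes. Alox15, a lipoxygenase, rose to 65.1 ± 43.5 CPM in macrophages, against 2.23 ± 2.36 CPM in monocytes (4.35 ± 0.58, adjusted p = 0.00026). The 7 markers of basophils, mast cells and eosinophils summed to 197 to 909.7 CPM in macrophages and 12.6 to 61.3 CPM in monocytes, and their part in these genes was not tested. Arginase 1 (Arg1) was at 4.44 ± 1.02 and 0.0917 ± 0.0853 CPM (2.30 ± 0.29, adjusted p = 0.00018) and Cish, a feedback inhibitor of cytokine signalling, at 10.5 ± 4.37 and 0.783 ± 0.175 CPM (2.61 ± 0.35, adjusted p = 0.00028). Klf4 fell to 17.3 ± 1.34 CPM in macrophages, against 206 ± 47.8 CPM in monocytes (-3.47 ± 0.25, adjusted p = 1.6e-05), and Clec7a to 13.3 ± 2.24 CPM, against 112 ± 49.4 CPM (-2.91 ± 0.31, adjusted p = 6.2e-05). Socs1 rose by 1.89 and Il13ra1 fell by 1.68. Tgm2 (adjusted p = 0.099) and Ccl22 (adjusted p = 0.15) did not pass.

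Of 12 other tested cDC2 markers, 5 fell in macrophages, 3 rose and 4 did not pass, against 7.42% of all genes lower and 12.8% higher, with a median log2 change of -0.42. Zeb2, a transcription factor of myeloid cells, fell to 96.4 ± 4.75 CPM, against 444 ± 67.5 CPM in monocytes (-2.18 ± 0.24, adjusted p = 7.0e-05), and Sirpa, an inhibitory receptor, to 102 ± 32.0 CPM, against 513 ± 180 CPM (-2.31 ± 0.33, adjusted p = 0.00040). Klf4, Cd209a and Itgam were the other genes that fell, and Esam, Dtx1 and Cd4 rose. Notch2 did not pass (-0.87, adjusted p = 0.083, limma), though it did without monocyte replicate 2 (adjusted p = 0.012). Of 16 other tested genes of Mrc1-positive tissue macrophages, 6 rose, 1 fell and 9 did not pass, against 12.8% higher and 7.42% lower, with a median of 1.5. Pf4 rose to 20.9 ± 10.4 CPM in macrophages, against 0.924 ± 1.15 CPM in monocytes (3.54 ± 0.47, adjusted p = 0.00028). Pf4 is also a platelet gene and 1 of 7 megakaryocyte markers, which summed to 88.6 to 269.8 CPM in macrophages and 3.49 to 11.8 CPM in monocytes, and their part in its rise was not tested. The adhesion molecule Vcam1 rose to 90.2 ± 25.4 CPM, against 19.2 ± 9.19 CPM (2.22 ± 0.34, adjusted p = 0.00063). Igf1, Cd5l, Timd4 and Mertk rose as well, and Adgre1 (F4/80) fell to 23.9 ± 8.27 CPM, against 65.5 ± 26.1 CPM (-1.40 ± 0.33, adjusted p = 0.011). Adgre1 and Mertk lost their calls without macrophage replicate 1 (adjusted p = 0.073 and 0.094) or 2 (0.052 and 0.054), and Mertk also without monocyte replicate 3 (0.065). Cd163 was at 34.5 ± 6.92 and 18.9 ± 5.0 CPM (adjusted p = 0.054) and C1qa at 26.9 ± 3.49 and 11.3 ± 12.2 CPM (adjusted p = 0.053). Without monocyte replicate 1, 13 of the 16 rose and 1 fell, while Mrc1 still did not pass. In that setting 1728 of 12569 genes tested were called higher and 733 lower.

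The genes whose profile lay nearest to each receptor were listed by the mean absolute difference of log2(CPM + 1), after removal of each gene's own mean, among tested genes with at least 5 CPM in the higher group. This likeness describes the libraries and carries no test. Over the 8 dendritic cell libraries, the nearest to Clec10a were Hpgd (0.40), which degrades prostaglandins, Skint3 (0.53), Cd209c (0.53) and the transporter Abca6 (0.56), where the median gene was at 2.25. Nearest to Mgl2 were the transferrin gene Trf (0.91), Cd209c (1.00), Cd209a (1.11) and Hpgd (1.22), with the median at 2.91. Nearest to Mrc1 were the transporter Abca9 (0.50), Hpgd (0.59), Skint3 (0.64) and Trf (0.69), with the median at 2.02. Clec10a and Mrc1 were 0.60 apart and Clec10a and Mgl2 1.06 apart. Clec10a was thus nearer to Mgl2 than Cd209a and Hpgd were, and nearer to Mrc1 than Skint3 and Trf were. Over the 6 macrophage and monocyte libraries the order of these pairs was the other way round, with Clec10a and Mgl2 0.82 apart and Clec10a and Mrc1 1.74 apart. There the median gene was 1.68 from Clec10a, 0.895 from Mgl2 and 0.602 from Mrc1. So Mgl2 was about as far from Clec10a as from the median gene, and Clec10a about as far from Mrc1 as from the median gene.

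In the other comparison, which this choice did not use, Abca6 (-3.07, adjusted p = 5.3e-05), Abca9 (-3.41, adjusted p = 3.1e-05), Skint3 (-1.91, adjusted p = 0.0054) and Hpgd (-1.49, adjusted p = 0.014) were lower in macrophages than in monocytes by limma. Cd209a was lower too (-4.21, adjusted p = 0.00026). Trf (-0.39, adjusted p = 0.50) and Cd209c (-1.01, adjusted p = 0.080) were not called. Of all genes tested there, 7.42% were called lower. The call of Hpgd was lost without macrophage replicate 1 (adjusted p = 0.094) or 2 (adjusted p = 0.066).

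Over the 6 macrophage and monocyte libraries the nearest genes were different. Clec10a lay nearest to Cd300ld (0.16), Apoc2 (0.21), the sphingosine phosphate receptor S1pr5 (0.24) and the lectin Clec4a3 (0.27). Mgl2 lay nearest to Ptgfrn (0.22), the Fc receptors Fcgr4 (0.24) and Fcgr1 (0.25) and the collagen receptor Ddr1 (0.26). Mrc1 lay nearest to the protease Mmp14 (0.19), Rgl1 (0.20), Slc37a2 (0.22) and Cyth3 (0.26). In dendritic cells, S1pr5 fell after PAM3CSK4 (-2.41, adjusted p = 0.0015) and so did Ptgfrn (-2.29, adjusted p = 0.015), which did not pass when vehicle replicate 1, 3 or 4 was left out (highest adjusted p 0.057). Cd300ld (0.69, adjusted p = 0.29), Apoc2 (-1.25, adjusted p = 0.069), Clec4a3 (0.74, adjusted p = 0.37), Fcgr4 (1.10, adjusted p = 0.14), Fcgr1 (0.76, adjusted p = 0.33) and Ddr1 (-0.35, adjusted p = 0.72) did not pass.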

How the data were processed

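RNA was measured by sequencing after ribosomal RNA depletion, per the labels' protocols. Per the submitters' processing notes, the tools were STAR 2.5.3a and Partek and the build mm10; their roles, the annotation, the strand setting and the handling of reads that fit several genes were not stated there. The authors deposited 2 tables under the name FPKM, whose values are read here as CPM, that is scaled to each library's total, because low values lie on whole multiples of a step that is equal for short and long genes (within 0.05 steps, 66.2% to 68.9% of the values of at most 50 steps for dendritic cells and 87.9% to 90.8% for the others). That is too few for recovery of counts. The deposited values hold an added 0.0001. The planned test had been written without a fixed unit and serves for CPM. In each library the listed genes held 35.0% to 57.9% of the total.

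Each table had its own fit with limma 3.58.1 under R 4.3.3 (lmFit, eBayes with trend), on log2(CPM + 1), two-sided, over genes with at least 1 CPM in 4 (dendritic cells) or 3 libraries (macrophages and monocytes), with p-values adjusted by Benjamini and Hochberg across every gene tested and called at 0.05. The fit was tested on simulated data. Fold changes on this scale understate those of low genes. Groups come from the labels. The monocyte and macrophage table also holds 3 columns headed as dendritic cells. These match no single sample by name and were not used. Same-numbered dendritic cell libraries did not deviate together in every pair. In the other table all same-numbered pairs did so weakly (correlations 0.084 to 0.183). The planned fits held no pairing, and a replicate block was run as an alternative. With the block, Mgl2 in macrophages against monocytes was at -1.67 ± 0.34 (limma, adjusted p = 0.012). The genes, the 6 gene lists and the marker lists were chosen with earlier results of these data known. Counts and adjusted p-values of the lists therefore describe them and are no independent support. The plan was to name up to 6 genes of each list past the threshold and up to 2 that did not pass, by unadjusted p. All of the mannose receptor family and galactose-type receptors were to be named too. For some lists the text names more than 6 genes past the threshold. Sequences were read from GENCODE M21 with GRCm38 and from RefSeq; coding sequences were aligned with Biopython 1.88. Alternatives were other pseudocounts, no filter, other scalings, a replicate block and each library left out.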

Additional observations from a re-analysis of the deposited data

How the results depend on the processing

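In dendritic cells the changes of Clec10a, Mgl2 and Mrc1 kept their sign in all 14 alternatives, with ranges when 1 library was left out of -4.65 to -3.85, -6.02 to -5.29 and -4.42 to -3.08. For Clec10a and Mgl2 the pseudocount moved the change most, by construction, to -6.61 for Mgl2 at 0.1 CPM and to -4.03 for Mgl2 and -3.43 for Clec10a at 5 CPM. In macrophages against monocytes Clec10a kept its call throughout, at -3.64 to -2.81 with 1 library left out. Mgl2 lost its call with a pseudocount of 5 (-1.01, adjusted p = 0.058), without the filter (-1.67, adjusted p = 0.092) and after rescaling to a common total (-1.55, adjusted p = 0.053), and ranged from -2.0 to -1.03 with 1 library left out (adjusted p 0.014 to 0.17). Mrc1 turned to -0.30 without monocyte replicate 3 and -0.08 without macrophage replicate 3, within a range of -0.30 to 0.74. Of the genes named beside them, Ddr1 turned to 0.29 in dendritic cells without PAM3CSK4 replicate 4 (range with 1 library left out -0.75 to 0.29) and Trf to 0.040 in macrophages without monocyte replicate 1 (range -0.68 to 0.040). The cause was not tested. The number of genes called in dendritic cells was 582, with 166 without the filter, where more genes were tested, 976 with a replicate block and 184 to 1008 with 1 library left out. In macrophages it was 2468, with 2609 under the block and 1699 to 3364 with 1 library left out. Rises made up 55.2% of dendritic cell calls as deposited, 41.4% after rescaling to a common total and 29.9% after median centring, and 63.4%, 72.9% and 51.3% of macrophage calls. Same-numbered libraries correlated at -0.115 to 0.30 in dendritic cells and 0.084 to 0.183 in the other table, where each library correlated best with its own number. The replicate block ended no call of Clec10a or Mgl2. Of the genes named, it added calls for Adgre1, Apoc2, Clec4a2, Il4ra, Maf and Siglec1 in dendritic cells and for C1qa, Maf and Tgm2 in macrophages, and it raised the calls among the tissue macrophage genes in dendritic cells to 8 (3 higher, 5 lower) from 4. Depth limits Mgl2 most, with about 11 reads in its lowest library.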
